A study of Mus musculus with 6 samples.

Results

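Peaks of H3K4me1 were examined at 8 genes of the mouse, the LIM homeobox genes Lhx2, Lhx6, Lhx8, Lhx9, Lmx1a, Lmx1b and Isl1, and Ldb1, which encodes their shared cofactor. They were chosen by family from 21755 protein-coding genes. H3K4me1 is histone H3 with 1 methyl group on lysine 4, a mark by which enhancers are commonly located, and its mapping used CUT&Tag, where a transposase tethered by an antibody cuts out marked fragments. In a study of whisker development, the mark was mapped to examine a candidate enhancer of Lef1. The tissue was the whisker pad, the part of the snout where the large whiskers form, of wild-type embryos of strain B6/J2 at embryonic day 12. The antibody recognised H3K4me1 in 3 of its 6 samples and was control IgG in the other 3. A peak list of each of the 3 H3K4me1 samples was analysed, called replicates 1, 2 and 3 after their pad numbers, and the IgG samples were not analysed here. Each sample was a whole pad taken apart into cells, so fewer marked cells and less mark per cell cannot be told apart. Whether the 3 pads came from different embryos is not stated in the sources used here, so the spread between replicates may be technical. With 1 group of samples no test of a difference could be made, and values are given with their spread.

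A peak was assigned to a gene when it overlapped the gene body or the 5 kb on either side. It was also assigned when it lay up to 100 kb from the gene body and the protein-coding start site nearest to its highest pileup was one of that gene. This gave 32 of 16788 peaks in replicate 1, 29 of 12969 in replicate 2 and 24 of 13998 in replicate 3. Positions in kb are counted from the 5′ start site in the direction of transcription, with negative values upstream. The lists hold the top 1% of signal blocks of each library, so the mark may still be present at a gene that has no peak. Total signal is the summed fragment pileup over a peak, in units that were not scaled to depth, and is therefore given also as a percentile within its own list. The study names a common target depth for its libraries, but the lists give no read numbers, so the depth reached by each was not measured here. The total signal within all peaks was between 744342185 and 985881531.

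The source name of 4 samples, H3K4me1 replicates 2 and 3 among them, is adult kidney, although all titles give whisker pad. Of 14 facial mesenchyme markers, 14, 14 and 12 had a peak over the gene body or 5 kb flanks in replicates 1, 2 and 3, as did 24.9, 22.6 and 19.6% of all protein-coding genes. Of 14 adult kidney markers, 5, 5 and 3 had one, with 9 at 0 peaks in all replicates, among them the podocyte gene Nphs1 and the tubule gene Umod. The 3 kidney markers with a peak in all replicates were Aqp1, Cubn and Slc12a1, of which Aqp1, a water channel also made outside the kidney, had its strongest peak at percentiles 97.6, 97.9 and 71.9. The counts were 6, 6 and 3 of 10 for surface ectoderm, 3, 4 and 2 of 8 for sensory neurons and 5, 5 and 5 of 6 for muscle. Values of replicate 1, the replicate that both labels place in the whisker pad, are given beside those of the others throughout.

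LIM homeodomain proteins carry a homeodomain that binds AT-rich DNA such as TAATTA and a pair of LIM domains, zinc-binding folds that hold other proteins. Ldb1, which has no DNA-binding domain of its own, binds those LIM domains and joins with other Ldb1 molecules, and in this way can hold distant enhancers and promoters together. Related pairs exist within the family, such as Lhx6 with Lhx8, Lhx2 with Lhx9, and Lmx1a with Lmx1b. In the embryonic face, Lhx6 and Lhx8 are known from the mesenchyme of the first pharyngeal arch, Lhx2 from hair follicle epithelium and Isl1 from cranial sensory neurons.

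Of the 8 genes, 6 (Lhx6, Lhx8, Lhx9, Lmx1a, Lmx1b and Ldb1) had a peak over the gene body or 5 kb flanks in all 3 replicates. Lhx2 had one in replicates 1 and 2, and Isl1 in replicate 2. Over all protein-coding genes 15.5% had such a peak in all 3 replicates, and over the 11988 genes between 11.4 and 159.5 kb long, the range of the 8 genes, the share was 17%. In replicates 1, 2 and 3 by themselves 7, 8 and 6 of the 8 genes had a peak, against 24.9, 22.6 and 19.6% of all genes. The peaks merged across replicates into 29 regions, of which 20 (69.0%) were found in 3 replicates, 4 in 2 and 5 in 1, where 46.3% of the 19251 regions of the series were found in all 3. The 9 regions in fewer than 3 replicates were at Lhx2, Isl1, Lhx8, Lmx1a and Lmx1b.

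**Figure D1:**
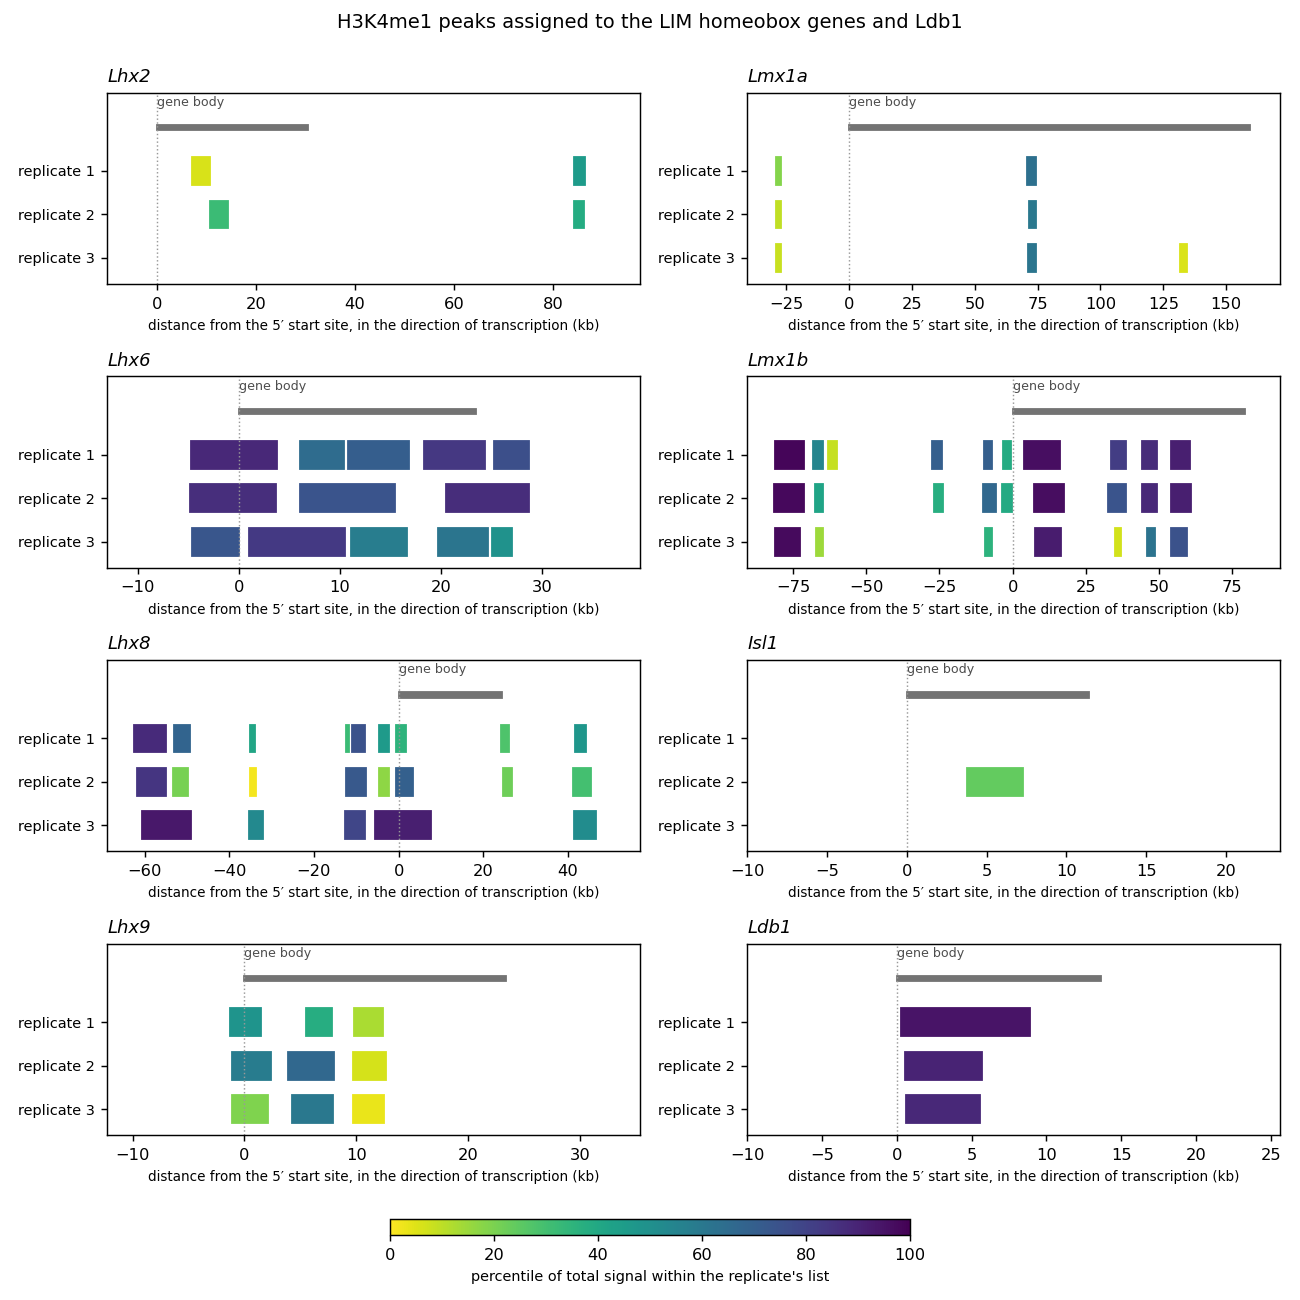
Each panel plots the H3K4me1 peaks assigned to 1 gene against the distance in kb from its 5′ start site (dotted line), with the gene body in grey, a row per replicate and each peak coloured by its percentile of total signal. Peaks lie across the whole of Lhx6, on both sides of Lhx8, and upstream of and inside Lmx1b. They also lie over the start and first part of Lhx9, with 3 in each replicate, and inside Ldb1, with 1 in each. Lhx2, Lmx1a and Isl1 have between 0 and 3 in a replicate.

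The sequences at the highest pileup are shown for 8 regions, 5 in which the highest pileups of peaks of all 3 replicates fell within the same 300 bases, and 3 that carry the results for Lmx1b, Ldb1 and Lhx2. Each is the plus strand of GRCm38, 300 bases around the middle of the highest pileup of replicate 1, and capitals mark the bases of highest pileup of every replicate whose middle falls in the window.
Lhx6, intron, 2.72 kb, 3 replicates, chr2:36102541-36102840: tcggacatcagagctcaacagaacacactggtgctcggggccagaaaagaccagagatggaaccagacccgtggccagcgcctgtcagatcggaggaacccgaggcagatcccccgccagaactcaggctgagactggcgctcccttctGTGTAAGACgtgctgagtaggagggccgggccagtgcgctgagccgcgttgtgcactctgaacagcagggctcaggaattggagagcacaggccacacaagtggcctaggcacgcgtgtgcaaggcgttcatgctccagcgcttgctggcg
Lhx8, intergenic, -34.3 kb, 3 replicates, chr3:154364837-154365136: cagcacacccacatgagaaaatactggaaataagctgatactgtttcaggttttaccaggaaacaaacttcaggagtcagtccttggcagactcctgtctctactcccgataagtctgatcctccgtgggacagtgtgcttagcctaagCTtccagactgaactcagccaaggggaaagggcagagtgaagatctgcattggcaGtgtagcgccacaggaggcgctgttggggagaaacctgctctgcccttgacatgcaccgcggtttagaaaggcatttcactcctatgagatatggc
Lhx9, intergenic, -0.272 kb, 3 replicates, chr1:138848699-138848998: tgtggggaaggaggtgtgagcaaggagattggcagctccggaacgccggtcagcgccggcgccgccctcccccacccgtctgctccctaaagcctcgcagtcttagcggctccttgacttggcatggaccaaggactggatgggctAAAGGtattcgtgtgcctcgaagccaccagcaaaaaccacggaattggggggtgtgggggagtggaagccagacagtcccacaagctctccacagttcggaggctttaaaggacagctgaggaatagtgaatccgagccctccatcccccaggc
Lmx1a, intron, 72.8 kb, 3 replicates, chr1:167761936-167762235: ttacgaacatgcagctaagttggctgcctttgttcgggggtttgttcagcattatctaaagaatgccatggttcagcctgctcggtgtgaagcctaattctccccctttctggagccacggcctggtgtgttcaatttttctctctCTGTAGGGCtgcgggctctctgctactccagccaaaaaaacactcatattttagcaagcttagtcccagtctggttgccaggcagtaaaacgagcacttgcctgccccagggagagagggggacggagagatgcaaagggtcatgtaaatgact
Lmx1b, intergenic, -8.72 kb, 3 replicates, chr2:33649085-33649384: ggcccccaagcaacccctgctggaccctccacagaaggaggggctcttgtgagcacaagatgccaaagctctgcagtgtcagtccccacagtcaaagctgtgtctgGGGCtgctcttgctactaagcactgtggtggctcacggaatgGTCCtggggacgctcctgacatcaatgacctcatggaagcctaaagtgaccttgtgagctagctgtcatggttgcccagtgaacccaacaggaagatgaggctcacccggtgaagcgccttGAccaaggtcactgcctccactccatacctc
Lmx1b, intergenic, -74.8 kb, replicates 1 and 2, chr2:33715157-33715456: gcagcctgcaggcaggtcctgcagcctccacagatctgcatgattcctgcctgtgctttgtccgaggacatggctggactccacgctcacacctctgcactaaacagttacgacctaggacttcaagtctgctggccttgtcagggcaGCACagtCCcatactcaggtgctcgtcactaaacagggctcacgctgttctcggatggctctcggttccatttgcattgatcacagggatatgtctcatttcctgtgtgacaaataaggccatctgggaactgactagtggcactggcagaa
Ldb1, intron, 2.62 kb, replicates 1 and 2, chr19:46042440-46042739: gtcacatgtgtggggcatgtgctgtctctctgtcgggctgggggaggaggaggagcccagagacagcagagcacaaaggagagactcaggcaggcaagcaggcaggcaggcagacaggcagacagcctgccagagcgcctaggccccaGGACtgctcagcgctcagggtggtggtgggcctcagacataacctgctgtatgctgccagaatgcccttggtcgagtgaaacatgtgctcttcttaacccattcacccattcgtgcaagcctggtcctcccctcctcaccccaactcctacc
Lhx2, intron of the noncoding gene Gm13589, 85.6 kb, replicates 1 and 2, chr2:38424727-38425026: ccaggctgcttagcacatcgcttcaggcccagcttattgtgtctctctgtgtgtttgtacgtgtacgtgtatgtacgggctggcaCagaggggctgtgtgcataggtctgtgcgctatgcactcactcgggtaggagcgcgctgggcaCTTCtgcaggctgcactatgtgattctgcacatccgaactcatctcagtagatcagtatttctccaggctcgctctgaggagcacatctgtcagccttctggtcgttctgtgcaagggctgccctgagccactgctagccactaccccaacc

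In the windows of Lhx6, Lhx9 and Lmx1a the middles of the highest pileups of the 3 replicates lay within 3 bases of each other, at positions 151, 152 and 154, 151, 149 and 150, and 151, 150 and 151 counted from the first base. Such closeness was not the rule at these genes. Taking the highest pileup of each replicate over the 20 regions in all 3 replicates, the highest pileups of the replicates lay within 300 bp of each other in 4 (20%), against 39.3% of all 8917 such regions. In the Lhx6 region over the start site, replicate 3 reached 33 fragments in the window shown and 34 fragments at -1.035 kb, so this region is not among the 4.

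The windows at the highest pileup of replicate 1 were searched on both strands for TAATTA, which reads the same on both, and for CTTTGAT, a form of the site bound by Lef1 and its relatives. TAATTA was found in 2 of the 32 windows of the members (6.25%), against 4.18% of the 16788 windows of the list. They were the window at 27.8 kb of Lhx6, which lies in an intron of Morn5, and the intergenic window at -49.9 kb of Lhx8. CTTTGAT was found in 0 of 32 windows, against 3.66%. The windows come from 7 genes, and windows of the same gene are not independent.

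Lhx6 was the most fully covered of the 8 genes. It lies on the minus strand of chromosome 2, from 36081953 to 36105408, and is 23.5 kb long. Peaks covered 84.5, 77.5 and 79.5% of its body and flanks in replicates 1, 2 and 3, or 80.5 ± 3.57% (SD, n = 3). The value at the 99th percentile of all genes was 51.7, 55.5 and 41.4%, and of the 8 genes only Lhx6 was above it, in each of the 3 replicates. The stretch was called as 5, 3 and 5 peaks, which merged into 2 regions, of 21.7 kb over the start site and 10.4 kb over the 3′ end, the latter reaching into the neighbour Morn5. By total signal the peaks over Lhx6 and flanks stood between percentiles 65.1 and 88.8 in replicate 1 and 74.2 and 87.3 in replicate 2. In replicate 3 they stood between 49.4 and 83.4. By total signal divided by length the ranges were 18.3 to 83.5, 7.60 to 64.8 and 7.77 to 87.9 in replicates 1, 2 and 3. Each upper value was that of a peak with its highest pileup in an intron of Morn5. This peak lay 1.86 and 1.60 kb outside the gene body in replicates 1 and 3. In replicate 2 it reached into Lhx6 and was also the peak at percentile 87.3 by total signal. The next highest values by length were 64.1, 60.2 and 58.6. The coverage of Lhx6 and its flanks thus came from many peaks of middle to high total signal, some long with low signal for their length. Together the assigned peaks, with the Morn5 peak included, held 355, 333 and 336 ppm of the peak signal of the lists. This was the least variable share of the 8 genes, at 341 ± 12.3 (SD, n = 3).

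Lhx8, the close relative of Lhx6, lies on the minus strand of chromosome 3, from 154306294 to 154330659, and is 24.4 kb long. Peaks covered 19.3, 25.1 and 36.5% of its body and flanks, or 27.0 ± 8.78% (SD, n = 3). In contrast to Lhx6, most of its peaks lay outside the body and flanks, 6 of 9 in replicate 1, 5 of 8 in replicate 2 and 4 of 5 in replicate 3. They were intergenic, and the start site of the next protein-coding gene, Cryz, was between 209.2 and 311.1 kb away from their highest pileups. By contrast, Morn5 reaches into the 5 kb flank of Lhx6. Because distal peaks go to the nearest start site, the number of distal peaks of a gene also depends on how close its neighbours lie. The strongest region of Lhx8 lay from -62.5 to -49.1 kb. There, replicate 3 had a peak of 11.4 kb at percentile 93.4, where replicates 1 and 2 each had 2 peaks, the stronger of which stood at percentiles 88.2 and 84.7. Over the start site replicate 3 again had 1 long peak, of 13.2 kb at percentile 91.5. In replicate 1 the same stretch held peaks of 2.35 and 2.38 kb at percentiles 35.5 and 45.9, and in replicate 2 peaks of 4.02 and 2.27 kb at percentiles 69.7 and 17.0. By total signal divided by length the replicate 3 peak stood lower, at percentile 18.6. The peaks of replicate 1 then stood at 42.5 and 58.2 and those of replicate 2 at 74.0 and 45.9. With 9, 8 and 5 peaks, Lhx8 had the fewest peaks in replicate 3 and also the highest share of list signal, at 382, 407 and 507 ppm. In the start site region, the upstream peaks of replicates 1 and 2 had their highest pileup in an exon of the noncoding gene AI606473.

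The region of Lhx8 at -34.3 kb ranked low by total signal in replicate 2, where its peak of 1.46 kb stood at percentile 1.85. In replicate 1 it was 1.27 kb at percentile 41.1 and in replicate 3 it was 3.33 kb at percentile 53.1. Its total signals were 23741, 24640 and 37071 in replicates 1, 2 and 3. The smallest total signals in these lists were 14265, 24247 and 19337. By maximum signal the region stood at percentiles 81.7, 47.5 and 70.2, and by total signal divided by length at 91.7, 73.0 and 50.99. The highest pileups of this region fell within the same 300 bases in all replicates, as the sequence of that window shows, at positions 151, 150 and 205.

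Lmx1b, a factor of dorsal limb, periocular mesenchyme and kidney podocytes, had the strongest single peaks. It lies on the minus strand of chromosome 2, from 33560965 to 33640511, and is 79.5 kb long. It had 10, 9 and 7 peaks in replicates 1, 2 and 3, which held 1043, 1191 and 645 ppm of list signal, a mean of 960 ± 282 (SD, n = 3). Replicate 3 was the lowest of the replicates. The region with the highest signal was intergenic, on chromosome 2 from 33711657 to 33722193, or -81.7 to -71.1 kb, and the next protein-coding start site, that of Mvb12b, was 167.7 to 171.5 kb from its highest pileups. Its peak was 9.70, 10.5 and 8.72 kb long in replicates 1, 2 and 3, with total signals of 269857, 345634 and 188784. The highest pileup reached 148, 167 and 74 fragments. In percentile of total signal it stood at 98.5, 97.8 and 97.3, which is 97.8 ± 0.592 (SD, n = 3), the highest mean of the 29 regions.

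The next strongest region lay in an intron of Lmx1b, from 3.80 to 17.7 kb after the start site. Its peak had total signals of 177028, 273728 and 118106 in replicates 1, 2 and 3, at percentiles 96.4, 96.5 and 92.4. Farther into the gene, 3 more intronic regions were found in all replicates, at mean percentiles of 54.3 ± 41.5, 79.6 ± 15.2 and 86.0 ± 9.65 (SD, n = 3), in the order of transcription. In each of these 3 regions replicate 3 was the lowest, and in the first of them it stood at percentile 6.65 against 82.2 and 74.0 in replicates 1 and 2. Since Lmx1b is also made in podocytes, its peaks do not separate the 2 tissues named in the labels, and replicate 1 by itself had the regions at percentiles 98.5 and 96.4. By the summed signal of peaks over the body and flanks, Lmx1b ranked 324, 249 and 613 of 21755 genes. The genes closest to it in this rank over the 3 replicates were Cacna1h, Gnai2 and Ttc7, with mean differences of 18, 19 and 19 ranks.

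Lmx1a, known from the roof plate of the neural tube, was marked far less densely than its relative. It lies on the plus strand of chromosome 1, from 167689237 to 167848741, and at 159.5 kb is the longest of the 8 genes. Peaks covered 1.99, 1.68 and 3.40% of its body and flanks, below the value at the 90th percentile of all genes, which was 14.8, 15.4 and 9.09%. The median over all genes was 0% in each replicate, and Lmx1a stood at percentiles 77.3, 78.6 and 84.3 of all genes in coverage. By total signal, the peak in the intron 72.8 kb after the start site stood at percentiles 63.3, 59.8 and 61.1, within a few percentiles. Its total signals were 36410, 54349 and 42869. By maximum signal it stood at 44.4, 69.8 and 72.9, and by signal divided by length at 58.2, 81.4 and 69.9. A weaker intergenic region from -29.2 to -26.9 kb stood at percentiles 18.6, 9.55 and 8.42 by total signal. The start site of Rxrg was 42.6 to 43.0 kb from the highest pileups of this region. Another region, 133.2 kb into the gene, was found in replicate 3 only, at percentile 5.71.

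Lhx9, a gene of limb, gonad and pineal gland, lies on the minus strand of chromosome 1, from 138825186 to 138848577. It had 3 peaks in each replicate and none farther away, and the 3 regions were found in all replicates. Peaks covered 23.1, 31.7 and 29.1% of its body and flanks, a mean of 28.0 ± 4.42% (SD, n = 3). The region over the start site had total signals of 26742, 52984 and 23350, at percentiles 48.3, 58.6 and 19.2. An intronic region 3.92 to 8.03 kb after the start site stood at 37.7, 66.6 and 59.8, and a second, 9.68 to 12.7 kb after it, was near the bottom of the lists at 12.7, 6.53 and 3.16. All peaks of Lhx9 were thus of middle to low total signal, and the order of the first 2 regions differed between replicates. By maximum signal the start site region stood at percentiles 80.4, 78.8 and 33.1, and the first intronic region at 17.8, 69.8 and 51.7.

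Lhx2, the relative of Lhx9, lies on the plus strand of chromosome 2, from 38339281 to 38369733. It had 2 peaks in replicates 1 and 2 and 0 in replicate 3, in which the nearest peak was 143.4 kb from the gene. The peak inside the gene ran from 38346333 to 38349950 in replicate 1, at percentile 6.13, and from 38349980 to 38353576 in replicate 2, at percentile 31.98. These peaks lay side by side without overlap, so they count as 2 regions found in 1 replicate each. The peak in Gm13589, 85.6 kb after the start site, was found in replicates 1 and 2, with total signals of 25613 and 37355 at percentiles 45.7 and 38.6. Its highest pileup was 72.3 kb from the closest Lhx2 start site and 86.8 kb from that of Nek6, so that its assignment to Lhx2 rests on a small difference in distance.

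Isl1, a gene of sensory and motor neurons, lies on the minus strand of chromosome 13, from 116298281 to 116309689. It had 1 peak, in replicate 2, of 3.48 kb with a total signal of 31093 at percentile 24.2 and its highest pileup in a coding exon. In replicates 1 and 3 the nearest peak was 105.3 and 322.4 kb from the gene. The first of these, from 116192896 to 116192989 at percentile 86.9, had an Isl1 start site as its nearest and lay just beyond the limit of 100 kb. It was far shorter than the median peak of the replicate 1 list, 2981 bp, and replicates 2 and 3 had no peak there. At this limit, Lhx8 and Lmx1b had peaks in all replicates just outside, the nearest 109.9 to 110.7 kb and 112.0 to 112.3 kb from the gene body, and the farthest peak inside was that of Lmx1b at 71.1 to 72.6 kb.

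Ldb1 lies on the minus strand of chromosome 19, from 46031570 to 46045214, and is 13.6 kb long. It had 1 peak in each replicate, of 8.59, 5.16 and 4.95 kb, with total signals of 145161, 152342 and 96066. They stood at percentiles 94.8, 90.5 and 88.8, a mean of 91.3 ± 3.10 (SD, n = 3), and reached pileups of 128, 115 and 67 fragments. Only 2, 3 and 4 peaks of the homeobox genes stood higher in replicates 1, 2 and 3, so that the cofactor gene had the fewest peaks of the genes marked in all replicates but a strong one. The highest pileup was in an intron, at the same base 2.62 kb after the start site in replicates 1 and 2 and 3.83 kb after it in replicate 3. The merged region also overlaps the annotated span of the neighbour Pprc1.

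**Figure D2:**
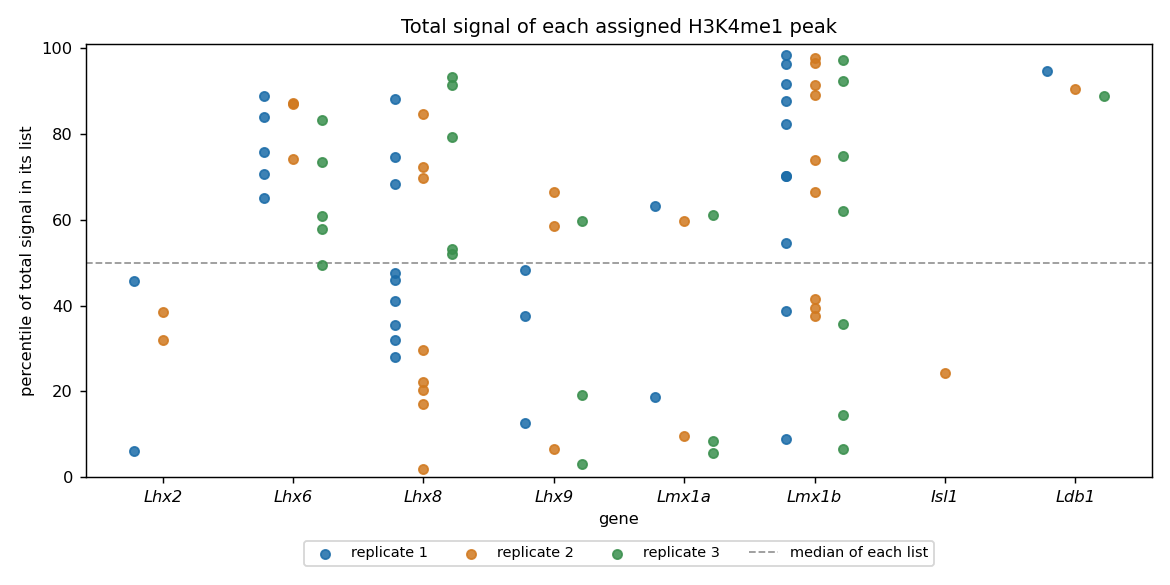
Each point is 1 assigned peak, plotted by gene on the x axis and by the percentile of its total signal within the list of its replicate on the y axis, with replicates in colour and a dashed line at the median of each list. Lmx1b reaches 98.5, 97.8 and 97.3 in replicates 1, 2 and 3, Ldb1 lies at 94.8, 90.5 and 88.8, and the peaks of Lhx2 and Isl1 are all below the median.

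Over all assigned peaks the median percentile of total signal was 64.2, 59.8 and 60.4 in replicates 1, 2 and 3, or 61.5 ± 2.40 (SD, n = 3), where a whole list has 50 by construction. The peaks above the 90th percentile numbered 4 of 32, 4 of 29 and 4 of 24, or 12.5, 13.8 and 16.7%. In replicates 1 and 2 they belonged to Lmx1b and Ldb1, and in replicate 3 to Lmx1b and Lhx8. The median length was 3354, 4016 and 4180 bp, against 2981, 3682 and 3352 bp over each whole list.

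**Figure D3:**
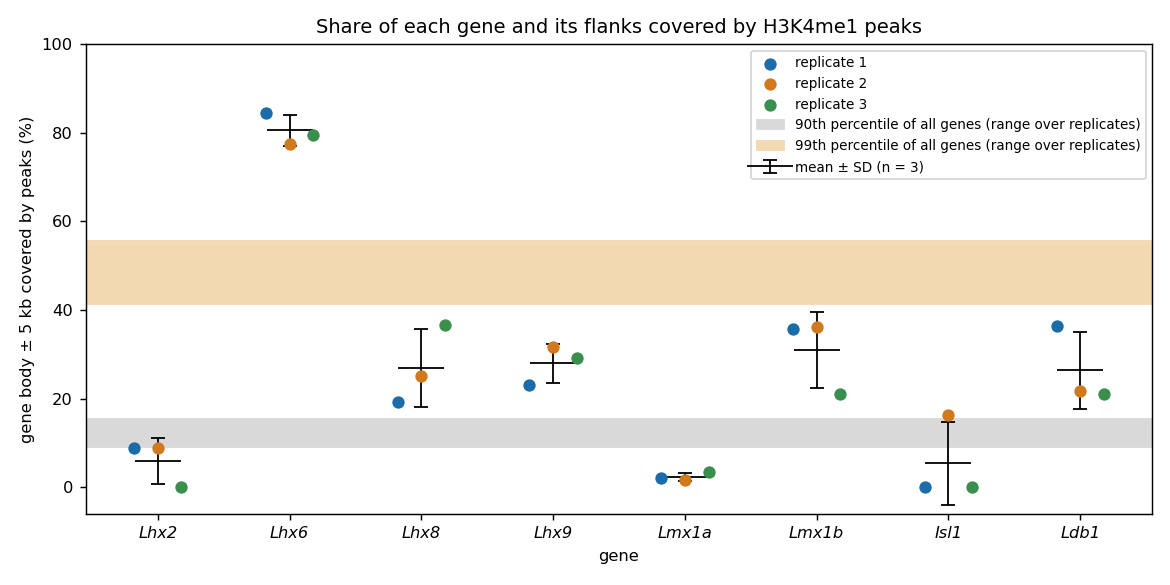
The y axis gives the percentage of each gene body with 5 kb flanks that peaks covered, with a point per replicate and the mean ± SD (n = 3) in black, and bands show the range over replicates of the 90th and 99th percentile of all 21755 protein-coding genes. Lhx6 lies above the upper band at 84.5, 77.5 and 79.5%, and Lhx2 and Lmx1a lie below the lower band in every replicate.

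Coverage of the body and flanks, given as a share of their length, was highest in Lhx6. Lmx1b at 31.0 ± 8.60%, Lhx9 at 28.0 ± 4.42%, Lhx8 at 27.0 ± 8.78% and Ldb1 at 26.4 ± 8.65% (SD, n = 3) followed, and differed from each other by less than their spread. Lhx2 at 5.95 ± 5.15%, Isl1 at 5.42 ± 9.39% and Lmx1a at 2.35 ± 0.916% (SD, n = 3) were lowest and also overlapped. Within the pairs of relatives, coverage was higher in all 3 replicates in Lhx6 than in Lhx8, in Lhx9 than in Lhx2 and in Lmx1b than in Lmx1a. A peak of a given length covers a larger share of a short gene, and the genes run from 11.4 to 159.5 kb. Lmx1b is 79.5 kb long and Lmx1a 159.5 kb.

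Peaks were then placed against the 5′ start site of each gene. The 5′ start sites of Lhx6, Lhx8 and Lhx9 lay in a peak in all 3 replicates, and those of the other 5 genes lay in a peak in none. Over all protein-coding genes 1.8% had the start site in a peak in all replicates, and 5.31, 6.5 and 2.42% did so in replicates 1, 2 and 3. At Lmx1b and Ldb1 the peaks stopped short of it. The nearest peak of Lmx1b ended at -0.4 and -0.185 kb in replicates 1 and 2, and at -6.97 kb in replicate 3. In replicates 1 and 2 its highest pileup lay in an exon of the antisense gene C130021I20Rik, and the mark does not tell strands apart. The peak of Ldb1 began 0.296, 0.559 and 0.633 kb after it and held 3, 1 and 0 of the 6 annotated start sites of the gene. Lhx2 had 2 of its 4 annotated start sites in a peak in replicate 2 and 0 in replicates 1 and 3. At Lhx2, Lmx1a and Isl1 no peak came within 3 kb of the 5′ start site in any replicate, and the closest, in Isl1 in replicate 2, was 3.78 kb away.

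GC content was examined at these regions because replicate 3 differs from the others with GC content over the whole series. The 29 regions had a median GC content of 50.6%, against 47.3% over all regions, and a repeat-masked share of 13.1% against 15.2%. The 8 regions with no peak in replicate 3 had a GC content between 45.6 and 61.1%, with a median of 54.1%, and the 20 regions found in all replicates had a median of 50.4%. Over regions in all replicates, the median log2 ratio of the signal share of replicate 3 to that of replicate 2 was 0.98 in the lowest of 10 equal groups by GC content and -0.84 in the highest. The 5 such regions of Lhx8, at 44.3 to 47.4% GC, had log2 ratios from 0.30 to 1.05. The 7 of Lmx1b, at 49.8 to 55.2% GC, had log2 ratios from -1.45 to -0.35. The higher share of Lhx8 and the lower share of Lmx1b in replicate 3 had the direction seen over all regions of like GC content, whose part in them was not tested. Against the median of the group of like GC content, the 20 regions were above in 12, and the region of Ldb1 was 0.64 above on the log2 scale. Set against the same medians, the regions of Lmx1b lay from -0.60 to 0.095 and those of Lhx8 from -0.19 to 0.61. All Lmx1b regions were below but the one that begins 3.80 kb after the start site. Between replicates 1 and 2 the log2 ratios of the 20 regions had a median size of 0.27, and between replicates 3 and 2 of 0.38.

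**Figure D4:**
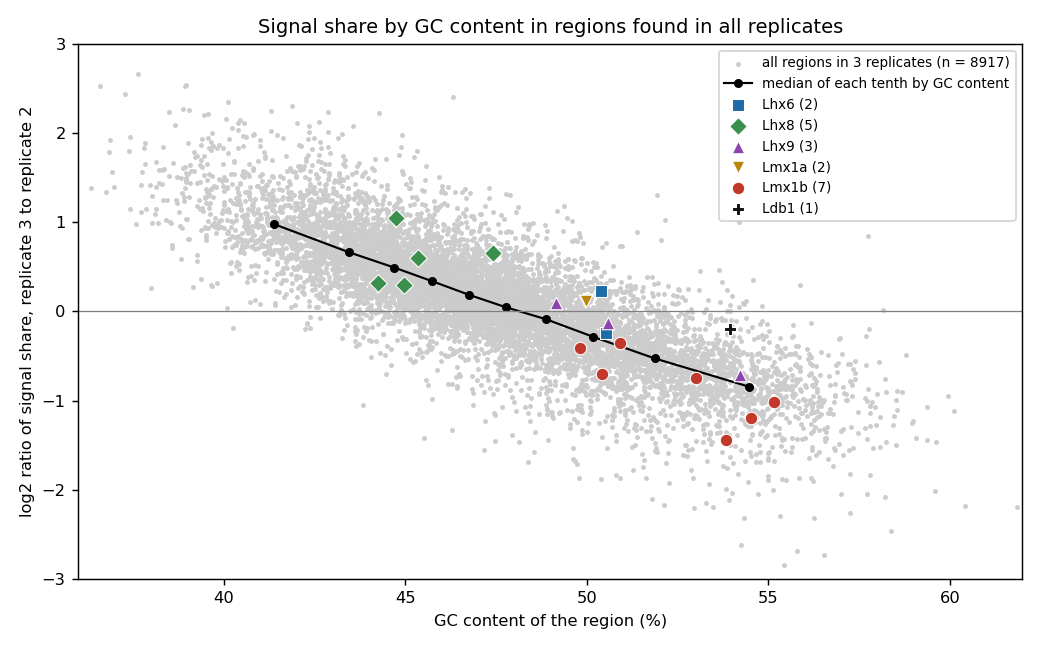
Each point is a region with a peak in all 3 replicates, plotted by GC content (x axis, %) and by the log2 ratio of its share of signal in replicate 3 to that in replicate 2 (y axis), grey for all 8917 regions, of which 9 lie outside the plotted range, and coloured for the 20 regions of the LIM homeobox genes and Ldb1. The line joins the medians of 10 equal groups by GC content, and the regions of Lhx8 lie above 0 on its left side while those of Lmx1b lie below 0 on its right side.

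The rest of the family and its partners were counted in the same way, beside the 15.5% of all protein-coding genes with a peak in all 3 replicates. Of the 5 other LIM homeodomain genes, Isl2 had a peak over the body or flanks in all 3 replicates, at percentiles 58.0, 70.1 and 2.85, and it also stands in the sensory neuron list above. Lhx4 had one in replicates 1 and 2, at percentiles 42.3 and 38.0, and Lhx1, Lhx3 and Lhx5, genes of early head and motor neuron development, had 0 in any replicate. With 1 of 5 genes in all replicates, this list was too short to set against the share over all genes. Among 9 partners of the LIM domains, 5 had a peak in all replicates, 2 in 2 replicates and 2 in none. Ssbp3, whose product binds Ldb1, had 9, 9 and 7 peaks, the strongest at percentiles 99.8, 99.4 and 99.5. Ldb2, the relative of Ldb1, had 10, 6 and 12 peaks over its 327.5 kb, the strongest at percentiles 78.1, 73.3 and 82.2. Ssbp2, Lmo1 and Lmo3 had peaks in all replicates. Their strongest stood at percentiles 36.7, 40.1 and 49.3 in Ssbp2, 80.8, 79.1 and 60.2 in Lmo1 and 29.6, 29.3 and 58.5 in Lmo3. Lmo4, a LIM-only gene, had a peak in replicates 1 and 3, at percentiles 16.1 and 82.8, and Ssbp4 in replicates 1 and 2, at 89.0 and 89.3. Lmo2, known from blood and vessels, and Rlim, which marks Ldb1 for breakdown, had 0 peaks. Ldb2, Ssbp2 and Lmo3 are longer than any of the 8 genes described above, and longer genes have more room for a peak.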

How the data were processed

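CUT&Tag for H3K4me1 was carried out by the authors on dissociated whisker pads. Bowtie2 2.3, SAMtools 0.1.19, bedtools and SEACR 1.3 are named in the submitters' processing notes with genome build mm10. Per replicate, the authors ran SEACR in stringent mode with no IgG track and a cutoff at the top 1% of blocks. The treatment of duplicate reads is not given in the sources used here. The deposited lists give position, total signal and maximum signal, both whole numbers unscaled for depth.

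GENCODE vM21 and the GRCm38 sequence were used, and 0 peaks ended past a chromosome. All 54050 distinct protein-coding start sites entered the assignment. Regions were peaks of the 3 lists merged where they overlapped by at least 1 bp. Percentiles were taken within each whole list. Signal shares by GC content were taken within the regions found in all replicates. Python 3.11.15, pandas 2.3.3 and pysam 0.24.0 were used, and the assignment was tested on simulated peaks. The genes, lists and tests were chosen with earlier results of these data known. All 8 genes and both fixed lists of relatives and partners are named, with, for each gene, its strongest region in the most replicates and regions at the start site. Other regions named were chosen after their values were seen. Alternatives were stricter lists, joined peaks, other flanks and distances, other signal measures and the leaving out of each replicate. No test between groups was made, because only 1 group was analysed.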

Additional observations from a re-analysis of the deposited data

How the results depend on the processing

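The 6 results were computed again under alternatives, which gave 61 values, of which 44 stayed within the spread between replicates, or for counts within 1.5 times, and 17 moved. The number of genes with a peak over the body or flanks in all replicates stayed between 6 and 7 except with the stronger 50% of each list, where it was 4 (Lhx6, Lmx1a, Lmx1b and Ldb1). With that alternative the mean number of assigned peaks was 16.7, 10 regions were in all replicates, 9.09% of all genes had a peak in all replicates and the median length was 5290 bp, since fewer and longer peaks entered. With the strongest 10000 peaks these were 13 regions, 11.9% and 4472 bp. Only peaks over the body and flanks gave 17.7 peaks, 12 regions and a median percentile of 64.8. By maximum signal the median percentile was 56.2 and by signal divided by length 56.1. A flank of 20 kb raised the share of all genes to 21.1%. Replicate 1 by itself, an alternative chosen after the data were seen, had 7 of 8 genes with a peak, against 24.9% of all genes, a median percentile of 64.2 and a median length of 3354 bp. Leaving out each replicate in turn gave 6 to 7 genes, 26.5 to 30.5 peaks, 20 to 27 regions in both remaining replicates, median percentiles of 60.1 to 62.3, lengths of 3685 to 4098 bp and 15.9 to 21.0% of all genes, the highest without replicate 3. No paired analysis was possible because no list of an IgG sample was used here.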
